A study of Mus musculus with 18 samples.

Results

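The 9 tyrosine kinase genes described here are Ptk2b (PYK2), Ptk2 (FAK), the Src family members Src, Lyn, Fgr and Fyn, and the kinases Csk, Syk and Btk, which work with the Src family but do not belong to it. They are the rows of the deposited count table whose Ensembl ID matches one of these 9 mouse symbols, 9 of 50600 genes. All 9 were found, and all 9 passed the filter on low counts, with 504 counts or more in every library. The study asked whether PYK2 acts upstream of the transcription factor IRF5 in the response of macrophages to bacterial lipopolysaccharide (LPS). For this, RNA was sequenced from bone marrow-derived macrophages (BMDMs), which were grown for 8 days with GM-CSF and replated as adherent cells. Defactinib, an inhibitor of FAK and PYK2, or its vehicle DMSO was given for 1 h before LPS. WT and IRF5 KO cells each made up 3 groups of 3 libraries, named unstimulated, LPS DMSO and LPS defactinib. The LPS groups received 100 ng/ml LPS for 2 h, with DMSO or 3.5 μM defactinib before it, and the unstimulated groups received no LPS. The labels list DMSO for the unstimulated libraries and the column names mark them as untreated, so their vehicle could not be settled. Strain, sex and age are not tied to these libraries in the sources used here, which name young adult male C57BL/6J mice for the study as a whole. The series counts its libraries as biological replicates without saying which came from separate animals, so p-values measure only the spread between these libraries.

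PYK2 and FAK are related non-receptor tyrosine kinases. Each phosphorylates itself after integrin engagement (FAK) or a rise in calcium, integrin or receptor signals (PYK2), and the phosphorylated site binds the SH2 domain of a Src family kinase. Src family kinases also phosphorylate the ITAM motifs of Fc receptor and lectin adaptors, to which Syk binds, and Btk acts below Syk on phospholipase C. Csk holds the Src family in check by phosphorylating an inhibitory tyrosine near their C-terminal end. All of this is regulation of the proteins, whereas the values here are transcript levels, so Ptk2b and Ptk2 counts are no check that defactinib blocked its targets.

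In the mm10 genome, Ptk2b (ENSMUSG00000059456) lies at chr14:66153257-66281052 and Ptk2 (ENSMUSG00000022607) at chr15:73205105-73423191, both on the minus strand. Among the Src family genes, all on the plus strand, Src (ENSMUSG00000027646) lies at chr2:157418444-157471862, Lyn (ENSMUSG00000042228) at chr4:3678115-3813122, Fgr (ENSMUSG00000028874) at chr4:132974095-133001910 and Fyn (ENSMUSG00000019843) at chr10:39368855-39565381. Csk (ENSMUSG00000032312) lies at chr9:57626646-57653631 on the minus strand, Syk (ENSMUSG00000021457) at chr13:52583173-52648792 on the plus strand and Btk (ENSMUSG00000031264) at chrX:134542336-134583570 on the minus strand. The counts cover the annotated exons of each gene.

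Promoter windows of RefSeq (build GRCm38.p6, 250 bases before a start site and 50 after it) were matched by symbol for 6 of the 9 genes, in 8 windows, and no entry was matched for Ptk2b, Ptk2 and Lyn. Sequence before a start site is shown for Src and Syk and for Csk and Btk, because the levels of each pair moved together over the libraries, as described below. The longest stretch before the start site that no annotated exon of the gene covers is printed 5′ to 3′ on the gene's strand, and capitals mark GGAA or its reverse complement, the core letters bound by ETS factors. For Syk the window of the second start site is shown, since exons cover the first. The stretches are chr2:157424043-157424115 for Src, chr13:52596632-52596852 for Syk, chr9:57653632-57653881 for Csk and chrX:134583141-134583390 for Btk. All but that of Csk lie inside the annotated span of their own gene.
Src: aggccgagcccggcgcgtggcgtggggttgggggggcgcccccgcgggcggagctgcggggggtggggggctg
Syk: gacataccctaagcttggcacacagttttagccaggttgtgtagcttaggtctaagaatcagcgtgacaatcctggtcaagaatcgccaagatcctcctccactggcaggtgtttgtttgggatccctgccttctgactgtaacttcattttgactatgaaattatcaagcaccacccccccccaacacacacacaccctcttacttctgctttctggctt
Csk: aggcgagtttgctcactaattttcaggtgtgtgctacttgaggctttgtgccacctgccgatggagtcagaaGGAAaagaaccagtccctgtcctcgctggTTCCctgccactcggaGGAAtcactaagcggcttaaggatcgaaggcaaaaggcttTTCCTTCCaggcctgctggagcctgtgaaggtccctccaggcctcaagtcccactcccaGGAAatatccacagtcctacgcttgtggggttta
Btk: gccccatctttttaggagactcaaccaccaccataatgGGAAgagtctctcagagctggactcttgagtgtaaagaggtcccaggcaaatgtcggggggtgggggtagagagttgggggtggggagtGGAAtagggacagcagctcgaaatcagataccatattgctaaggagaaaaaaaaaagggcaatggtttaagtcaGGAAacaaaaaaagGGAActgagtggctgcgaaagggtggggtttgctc
GGAA was found 6 times in the Csk stretch, 4 times in that of Btk and in neither of the others, which are shorter at 73 and 221 bases. The full windows held it 6 times for Csk, 5 times for Btk, 2 times for Src and 3 times for the second start site of Syk. Of all 32851 promoter windows, 96% hold GGAA on one of the strands, so its presence sets no gene apart. Also searched on both strands were a pair of GAAA motifs spaced by 2 bases, as bound by interferon regulatory factors (3.44% of all windows), TGANTCA (7.81%) and the 10-base NF-kB motif (5.8%), and none of them was found in the 8 windows of the 6 genes, so no matches overlapped. This says only that these letters are not in these windows.

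The libraries held 39282181 to 61949143 counts on genes. Levels are given as CPM, a gene's count scaled to a fixed library total with TMM factors, and the adjusted p of a difference comes from the quasi-likelihood F test of edgeR over the 15663 genes that passed the filter. The IRF5 KO LPS DMSO libraries stood apart from each other: replicates 1 and 2 differed from replicate 3 by over 2-fold in 4249 and 4260 genes, and from each other in 781. Replicates 1 and 2 were nearer to the IRF5 KO LPS defactinib libraries, with 1211 to 1470 genes over 2-fold apart, and replicate 3 to the IRF5 KO unstimulated libraries, with 1278 to 1447. Whether any of these 3 libraries is mislabelled was not tested, and every LPS, defactinib and genotype value of this group takes the labels as given. WT LPS defactinib replicate 3 also stood apart, with 1984 and 2377 genes over 2-fold from replicates 1 and 2, which differed in 1244. In the 4 remaining groups the pairs differed in 453 to 908 genes. The RNA Gm26917 took 2.57% and 2.56% of the counts in replicates 1 and 2, as against 0.0125% in replicate 3. Its share was 1.06% to 4.15% in the 6 defactinib libraries and 0.0154% or less in the 9 other libraries without defactinib. In WT, Gm42418 went from 0.346% to 0.454% of counts in LPS DMSO to 1.65% to 2.09% in LPS defactinib, and mitochondrial genes from 0.671% to 0.913% to 1.05% to 1.26%. Gm42418 was at 0.184% and 0.222% in WT unstimulated replicates 1 and 2 and at 1.44% in replicate 3. Of 4 RNAs listed for RNA quality and nuclear RNA, defactinib in WT raised 3 (Gm26917, Gm42418 and Malat1) and lowered Neat1, all past 2-fold. For LPS in IRF5 KO 3 of the 4 were higher and 0 lower past 2-fold, and after LPS DMSO 2 were higher and 1 lower in IRF5 KO than in WT. Gm42418 was at 0.236% to 0.3% in IRF5 KO unstimulated, at 2.08% and 2.12% in LPS DMSO replicates 1 and 2 and at 0.4845% in replicate 3. These RNAs moved with the defactinib differences of the kinases in WT. In IRF5 KO they moved with the differences that use the LPS DMSO libraries. Their part in these differences was not tested. The main results that use this group are therefore also given without replicate 3 or with replicate 3 as its only library. In the latter fit the spread comes from the other groups alone, and the lone library is assumed to vary as they do, so its p-values carry no replicate check of that group. Irf5 reads were counted in the IRF5 KO libraries at 335 to 435 CPM, as against 213 to 650 CPM in WT, so that exon counts do not check the deletion. Unstimulated, IRF5 KO was 1.68-fold lower in Irf5 (log2 -0.75 ± 0.16, adjusted p = 0.00492), with no overlap of libraries. After LPS DMSO and under defactinib the genotypes overlapped (-0.16 and 0.42, adjusted p = 0.428 and 0.0545). Macrophage markers summed to 12040 CPM or more in every library, with all 12 genes at a mean of 1 CPM or more over the 18 libraries. Neutrophil markers summed to 250 to 469 CPM in WT and 1081 to 2722 CPM in IRF5 KO, and mast cell and basophil markers to 8.06 to 15.7 and 43.2 to 73.2 CPM. Only some genes of each list passed 2-fold at an adjusted p below 0.05, all higher in IRF5 KO. Of 9 tested neutrophil markers these were 2 unstimulated, 3 after LPS DMSO and 1 under defactinib. Of 5 tested mast cell and basophil markers they were 2, 2 and 1. Within IRF5 KO, neutrophil markers summed to 1172 to 1718 CPM in LPS DMSO and 2538 to 2722 CPM in LPS defactinib, and macrophage markers to 12040 to 15340 and 21220 to 22070 CPM. In that comparison 0 of 9 tested neutrophil and 0 of 12 macrophage markers passed both thresholds. By the adjusted p alone 0 and 4 were higher, and none was lower. Within WT, neutrophil markers went from 250 to 264 CPM unstimulated to 325 to 419 CPM in LPS DMSO. With defactinib in WT, dendritic cell markers went from 106 to 128 CPM to 61.7 to 75.9 CPM, and macrophage markers from 12910 to 13600 CPM to 14470 to 18460 CPM. The genes of each list were mixed in direction. Past 2-fold at an adjusted p below 0.05, 1 of 6 tested dendritic cell markers was higher there and 1 lower. Of 12 macrophage markers 1 was higher and 2 were lower, so these sums are no shift of whole lists. The part of these shifts in the differences of the kinases was not tested. In bulk RNA, fewer cells of a type and less RNA per cell cannot be told apart.

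Per kb of exon, Syk and Csk had the highest means over all 18 libraries, at 45.9 and 45.1 CPM per kb, and Ptk2 the lowest, at 5.75 CPM per kb. Fgr and Lyn followed at 37.2 and 37.1 CPM per kb, then Btk at 26.3, Ptk2b at 21.2, Src at 13.9 and Fyn at 12.7. The order differed between groups. In WT unstimulated macrophages Csk came first at 62.8 ± 3.14 CPM per kb (SD, n = 3), before Lyn (47.9 ± 1.77) and Syk (47.5 ± 2.16), whose libraries overlapped. In WT LPS DMSO Syk came first at 77.3 ± 4.32 CPM per kb, above Lyn (42.8 ± 2.27), and Lyn, Fgr (37.0 ± 3.27), Src (35.6 ± 5.02) and Csk (32.9 ± 0.95) each overlapped with their neighbours among these 4. Ptk2 was last in all 6 groups. The spread was widest for Src, whose highest library (177 CPM) was 14.6 times its lowest (12.1 CPM). It was 3.34 for Syk, 2.85 for Ptk2, and between 1.63 (Fgr) and 2.43 (Fyn) for the rest.

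**Figure D1:**
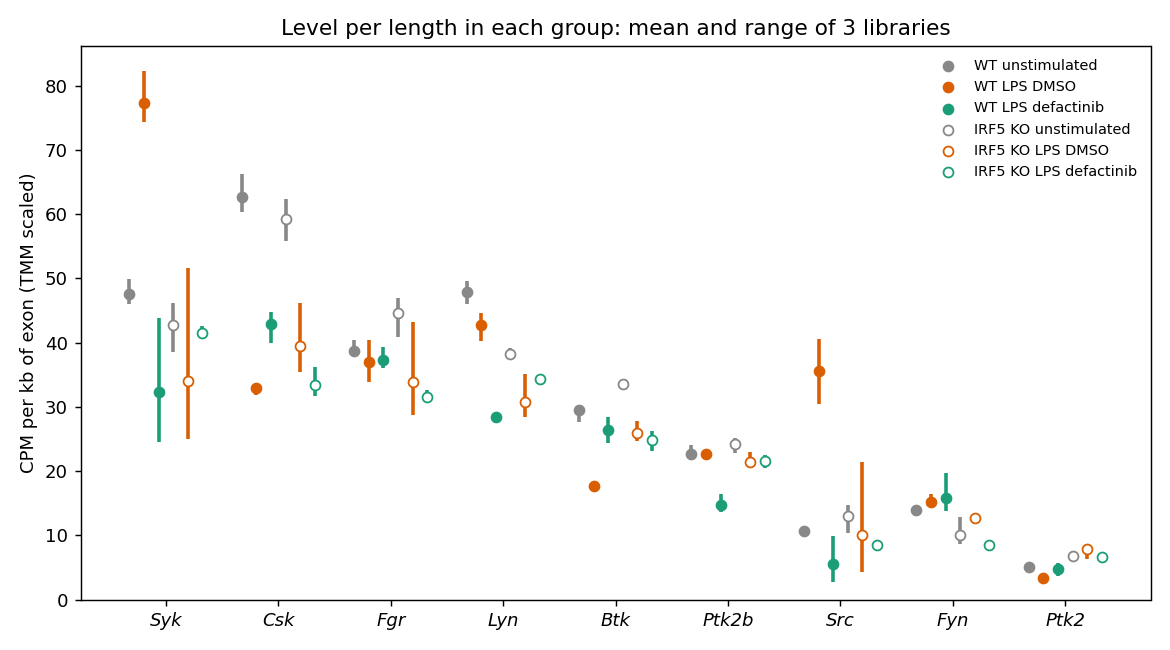
Level of each kinase gene in CPM per kb of exon (vertical axis) for the 9 genes (horizontal axis, ordered by mean over all libraries). Points are group means of 3 libraries and lines run from the lowest to the highest library. Src and Syk have their highest groups at WT LPS DMSO, and the longest line is that of Syk in IRF5 KO LPS DMSO (25.1 to 51.6 CPM per kb).

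Ptk2b, the gene of PYK2, did not pass the test for LPS in WT and was lower with defactinib. It was at 161, 163 and 178 CPM in the WT unstimulated libraries, at 162, 169.5 and 172 CPM in WT LPS DMSO, and at 105, 101 and 122 CPM in WT LPS defactinib. All 3 defactinib libraries lie below all 6 others of WT, and the unstimulated and LPS libraries overlap. The LPS difference was 0.00 ± 0.09 (log2, SE; adjusted p = 0.974), with a 95% interval of -0.16 to 0.17. With library size as the only scaling it was -0.37 (adjusted p = 0.00306), where the median of all genes shifted to -0.38, so that Ptk2b kept its place relative to that median. Defactinib lowered Ptk2b by 1.54-fold (log2 -0.62 ± 0.09, adjusted p = 2.44e-05).

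In IRF5 KO, Ptk2b was at 182, 169 and 186 CPM unstimulated, at 153, 151 and 170 CPM in LPS DMSO, and at 162, 166 and 151 CPM in LPS defactinib. The LPS groups with and without defactinib overlap there, with a difference of 0.01 ± 0.09 (adjusted p = 0.943). The difference was 0.07 without replicate 3 (adjusted p = 0.68) and -0.11 with replicate 3 alone (adjusted p = 0.48). The defactinib effect on Ptk2b differed between the genotypes by 0.63 ± 0.12 (adjusted p = 0.000787), by 0.69 without replicate 3 (adjusted p = 8.87e-05) and by 0.50 with it alone (adjusted p = 0.0122). With library size as the only scaling it was 0.30 (adjusted p = 0.0685). Under defactinib, IRF5 KO was above WT by 0.55 ± 0.09 (adjusted p = 0.000122).

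Ptk2, the gene of FAK, fell with LPS in WT and was higher in IRF5 KO than in WT after LPS. It was at 24.9, 26.3 and 25.0 CPM in WT unstimulated, at 16.1, 15.3 and 18.9 CPM in WT LPS DMSO, and at 28.3, 23.5 and 18.5 CPM in WT LPS defactinib. The LPS libraries lie below the unstimulated ones, and 1 defactinib library overlaps them. LPS lowered Ptk2 by 1.52-fold (log2 -0.60 ± 0.15, adjusted p = 0.00442). With defactinib it was higher by 0.48 ± 0.15 (adjusted p = 0.0129), which did not pass without WT LPS defactinib replicate 1 (0.37, adjusted p = 0.056).

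IRF5 KO libraries held Ptk2 at 33.0, 37.8 and 30.5 CPM unstimulated, at 43.3, 43.5 and 31.6 CPM in LPS DMSO, and at 32.6, 33.8 and 33.5 CPM in LPS defactinib. Every one of these 9 libraries lies above every WT library. After LPS the genotypes differed by 2.35-fold (log2 1.24 ± 0.15, adjusted p = 1.21e-05), by 1.37 without replicate 3 and by 0.93 with replicate 3 alone, both past the threshold. Unstimulated, the difference of 0.41 ± 0.15 had an adjusted p of 0.0825, and it passed without WT LPS defactinib replicate 3 (0.0369), without IRF5 KO LPS DMSO replicate 3 (0.019) or with that library as the only one of its group (0.0252), with library size alone (0.0215) and with only the groups compared (0.00226). Under defactinib it was 0.51 ± 0.15 (adjusted p = 0.0156), and 0.34 without WT LPS defactinib replicate 3 (adjusted p = 0.078).

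The LPS response of Ptk2 differed between the genotypes by 0.83 ± 0.21 (adjusted p = 0.0162), by 0.96 without replicate 3 (adjusted p = 0.000362) and by 0.53 (adjusted p = 0.126) with replicate 3 alone. Within IRF5 KO the LPS difference was 0.23 ± 0.15 (adjusted p = 0.24), 0.36 without replicate 3 (adjusted p = 0.0284) and -0.08 with replicate 3 alone (adjusted p = 0.887). The sign in IRF5 KO therefore depended on which libraries were used. The defactinib effect on Ptk2 differed between the genotypes by -0.73 ± 0.21 (adjusted p = 0.0138), by -0.87 without replicate 3 (adjusted p = 0.000698) and by -0.44 (adjusted p = 0.129) with replicate 3 alone.

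Src, the founding member of its family, rose most of the 9 with LPS in WT and fell most with defactinib. It was at 45.0, 47.8 and 46.6 CPM in WT unstimulated and at 177, 156 and 133 CPM in WT LPS DMSO. WT LPS defactinib libraries held 16.3, 12.1 and 43.5 CPM, so that replicate 3 stands apart. The 3 groups do not overlap: every LPS DMSO library is above, and every defactinib library below, all unstimulated ones. LPS raised Src by 3.35-fold (log2 1.74 ± 0.53, adjusted p = 0.0145), which did not pass with no filter on low counts (1.71, adjusted p = 0.0558). Defactinib lowered it by 6.5-fold (log2 -2.70 ± 0.55, adjusted p = 0.000736), and by a log2 difference of -3.44 ± 0.58 without WT LPS defactinib replicate 3. Against unstimulated macrophages, the difference under LPS with defactinib was -0.96 ± 0.52 (adjusted p = 0.133), and -1.70 ± 0.53 (adjusted p = 0.0165) without that library. It also passed without IRF5 KO LPS DMSO replicate 3 (-0.96, adjusted p = 0.0292) and with that replicate alone (-0.95, adjusted p = 0.04).

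In IRF5 KO, Src was at 60.4, 45.6 and 64.5 CPM unstimulated and at 35.3, 40.7 and 36.0 CPM in LPS defactinib. The LPS DMSO libraries held 20.5 and 18.9 CPM in replicates 1 and 2 and 93.6 CPM in replicate 3. The first 2 lie below every other IRF5 KO library, and the third above every one. The LPS difference in IRF5 KO was -0.36 ± 0.51 (adjusted p = 0.604) with all 3, -1.53 without replicate 3 (adjusted p = 0.00575) and 0.74 with replicate 3 alone (adjusted p = 0.507). Its sign thus turned with the library used.

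After LPS DMSO, Src was lower in IRF5 KO than in WT by 3.51-fold (log2 -1.81 ± 0.53, adjusted p = 0.0103). Without replicate 3 the difference was -2.98 (adjusted p = 5.1e-05), and with replicate 3 alone it was -0.71 (adjusted p = 0.33). With only the groups compared it was -1.76 and did not pass (adjusted p = 0.082). The LPS response differed between the genotypes by -2.10 ± 0.73 (adjusted p = 0.0618), and by -3.27 without replicate 3 (adjusted p = 0.000294), and it did not pass with replicate 3 alone (adjusted p = 0.377). It did pass with DESeq2 (-2.12, adjusted p = 0.0132), with limma-voom (-2.46, adjusted p = 0.0148) and with the replicate block (-2.35, adjusted p = 0.0258). The defactinib effect differed by 2.45 ± 0.74 (adjusted p = 0.017), with 3.63 (adjusted p = 9.87e-05) and 1.34 (adjusted p = 0.137) without replicate 3 and with it alone. It did not pass with no filter or with only the groups compared (adjusted p = 0.0612 and 0.058).

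Among the other Src family members, Lyn fell with defactinib in WT, whereas Fgr and Fyn did not pass the test there. Lyn, which can both start and dampen ITAM signals, was at 202, 195 and 187 CPM in WT unstimulated, at 164, 182 and 177 CPM in WT LPS DMSO, and at 118, 112 and 118 CPM in WT LPS defactinib. The defactinib libraries lie below all other libraries of WT. Defactinib lowered Lyn by 1.51-fold (log2 -0.59 ± 0.08, adjusted p = 2.95e-05), and the LPS difference was -0.16 ± 0.08 (adjusted p = 0.138). The latter passed without IRF5 KO LPS DMSO replicate 3 or with it alone (adjusted p = 0.0363 and 0.0426), with only the groups compared (0.029) and with library size alone (-0.54, adjusted p = 0.000657).

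Lyn in IRF5 KO was at 159, 154 and 153 CPM unstimulated, at 116, 117 and 143 CPM in LPS DMSO, and at 142, 138 and 139.9 CPM in LPS defactinib. All 9 libraries lie below all WT libraries without defactinib and, except for the first 2 LPS DMSO ones, above those with it. Unstimulated, IRF5 KO was lower by 0.32 ± 0.08 (log2, adjusted p = 0.0138), a call lost without WT unstimulated replicate 1 or IRF5 KO unstimulated replicate 2 or 3 (adjusted p = 0.0642, 0.0544 and 0.056), with no filter (0.0772) and with library size alone (-0.22, adjusted p = 0.204). After LPS DMSO it was lower by 0.48 ± 0.08 (adjusted p = 0.000247), by -0.58 (adjusted p = 1.53e-06) without replicate 3 and -0.27 (adjusted p = 0.0368) with it alone. With library size alone it was -0.22 and did not pass (adjusted p = 0.0993). The defactinib effect on Lyn differed between the genotypes by 0.75 ± 0.12 (adjusted p = 0.000154), 0.86 without replicate 3 and 0.53 with it alone, all past the threshold.

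Fgr, a Src family member of myeloid cells, was the steadiest of the 9. It was at 146, 147 and 156 CPM in WT unstimulated, at 131, 142 and 156 CPM in WT LPS DMSO, and at 140.4, 152 and 139 CPM in WT LPS defactinib. These 3 groups overlap, with an LPS difference of -0.07 ± 0.13 (adjusted p = 0.712) and a defactinib difference of 0.01 ± 0.13 (adjusted p = 0.961). With library size alone the LPS difference was -0.45 (adjusted p = 0.0227). In IRF5 KO it was at 178, 158 and 182 CPM unstimulated, at 115, 111 and 167 CPM in LPS DMSO, and at 122, 126 and 119 CPM in LPS defactinib. LPS lowered it there by 1.31-fold (log2 -0.40 ± 0.13, adjusted p = 0.0245), by -0.61 without replicate 3 (adjusted p = 1.27e-05) and by -0.03 with replicate 3 alone (adjusted p = 0.943). The call was also lost without replicate 1 or 2 of that group and without IRF5 KO unstimulated replicate 1 or 3 (adjusted p = 0.142, 0.15, 0.0713 and 0.0795), and with only the groups compared (0.207).

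Fyn, a broadly expressed member, was at 62.4, 63.2 and 57.0 CPM in WT unstimulated, at 63.6, 72.0 and 63.8 CPM in WT LPS DMSO, and at 61.7, 60.4 and 85.9 CPM in WT LPS defactinib. Replicate 3 of the last group is the highest Fyn library, and neither difference in WT passed (0.13 ± 0.15 and 0.06 ± 0.15, adjusted p = 0.532 and 0.741). In IRF5 KO it was at 38.6, 56.0 and 37.5 CPM unstimulated, at 54.6, 56.4 and 55.0 CPM in LPS DMSO, and at 37.8, 37.9 and 35.3 CPM in LPS defactinib. Each of these 9 libraries lies below each WT library.

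Under LPS with defactinib, Fyn was lower in IRF5 KO than in WT by 1.87-fold (log2 -0.91 ± 0.15, adjusted p = 2e-04), and this passed in all 26 alternative fits. Unstimulated, it was lower by 0.47 ± 0.15 (adjusted p = 0.0434), which passed in 5 of the 18 fits that leave out 1 library and not with library size alone or no filter (adjusted p = 0.152 and 0.0745). Defactinib lowered it in IRF5 KO by 1.5-fold (log2 -0.58 ± 0.15, adjusted p = 0.0464), which passed in 7 of these 18 fits. It did not pass with no filter, with the replicate block or with only the groups compared (adjusted p = 0.0616, 0.0599 and 0.0756). The difference was -0.59 both without IRF5 KO LPS DMSO replicate 3 (adjusted p = 0.032) and with that library alone (adjusted p = 0.0299). The defactinib effect on Fyn differed between the genotypes by -0.64 ± 0.21 (adjusted p = 0.0247), by -0.65 without replicate 3 (adjusted p = 0.0164) and with replicate 3 alone by -0.67 (adjusted p = 0.0557).

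Csk, the gene of the kinase that restrains the Src family, fell with LPS in WT and, with all libraries in the fit, in IRF5 KO. It was at 226, 230.3 and 248 CPM in WT unstimulated, at 125, 119 and 125 CPM in WT LPS DMSO, and at 149, 164 and 167 CPM in WT LPS defactinib. The 3 groups do not overlap, and the defactinib libraries lie between the other groups. LPS lowered Csk by 1.91-fold (log2 -0.93 ± 0.10, adjusted p = 2.46e-06), and defactinib raised it by 0.38 ± 0.10 (adjusted p = 0.00415). In IRF5 KO it was at 223, 209 and 233 CPM unstimulated, at 137, 133 and 173 CPM in LPS DMSO, and at 119, 135 and 119.9 CPM in LPS defactinib.

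All LPS-treated IRF5 KO libraries lie below all unstimulated ones for Csk. LPS lowered it there by 1.5-fold (log2 -0.59 ± 0.10, adjusted p = 0.00117), by -0.72 without replicate 3 (adjusted p = 1.38e-06) and by -0.34 with replicate 3 alone (adjusted p = 0.112). With only the groups compared it was -0.54 and did not pass (adjusted p = 0.0953). The LPS response did not pass a test of a difference between the genotypes (0.34 ± 0.14, adjusted p = 0.102), except with replicate 3 alone (0.60, adjusted p = 0.00815) and with library size as the only scaling (0.50, adjusted p = 0.0482). For defactinib the difference between genotypes was -0.62 ± 0.14 (adjusted p = 0.00271), -0.49 without replicate 3 and -0.89 with it alone, all past the threshold. After LPS DMSO, Csk was higher in IRF5 KO by 0.26 ± 0.10 (adjusted p = 0.0375), which was lost without replicate 3 (0.13, adjusted p = 0.17) and without each WT LPS DMSO library (adjusted p = 0.0628, 0.0904 and 0.0606). It was also lost with DESeq2 size factors, with no filter and with only the groups compared (adjusted p = 0.0509, 0.0682 and 0.126). Under defactinib it was lower by 0.36 ± 0.10 (adjusted p = 0.00977).

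Syk, whose kinase binds phosphorylated ITAMs, moved in WT in the same directions as Src, by less. It was at 431, 436 and 468 CPM in WT unstimulated, at 703, 697 and 769.8 CPM in WT LPS DMSO, and at 266, 230.2 and 411 CPM in WT LPS defactinib. The 3 groups do not overlap, and replicate 3 of the defactinib group is again the nearest to the unstimulated libraries. LPS raised Syk by 1.63-fold (log2 0.70 ± 0.24, adjusted p = 0.0251). This did not pass with no filter (adjusted p = 0.0763), with library size alone (0.32, adjusted p = 0.308), without any 1 of the WT unstimulated libraries (adjusted p = 0.0733, 0.0718 and 0.0517) or without WT LPS DMSO replicate 3 (adjusted p = 0.0701). Defactinib lowered Syk by 2.39-fold (log2 -1.26 ± 0.24, adjusted p = 0.000397), by -1.53 ± 0.24 without WT LPS defactinib replicate 3. Against unstimulated macrophages the difference was -0.56 ± 0.24 (adjusted p = 0.0576), and -0.83 ± 0.23 (adjusted p = 0.0083) without that library. It also passed with the replicate block (-0.595, adjusted p = 0.0169), limma-voom (0.0339), library size alone (0.0269), when replicate 1, 2 or 3 of IRF5 KO LPS DMSO was left out (0.0456, 0.0476 and 0.00337) and with replicate 3 alone (0.00534).

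In IRF5 KO, Syk was at 408, 362 and 432 CPM unstimulated and at 386, 399 and 382 CPM in LPS defactinib. The LPS DMSO libraries held 235 and 239 CPM in replicates 1 and 2 and 483 CPM in replicate 3, again below and above all other libraries of the genotype. LPS gave a difference of -0.33 ± 0.23 (adjusted p = 0.275), -0.76 without replicate 3 (adjusted p = 0.000901) and 0.28 with replicate 3 alone (adjusted p = 0.558). After LPS DMSO, IRF5 KO was below WT by 2.27-fold (log2 -1.18 ± 0.24, adjusted p = 0.000823), with -1.61 (adjusted p = 4.84e-07) and -0.57 (adjusted p = 0.059) in these 2 fits. The LPS response differed between the genotypes by -1.03 ± 0.33 (adjusted p = 0.0442), which passed in 3 of the 18 fits that leave out 1 library. It was -1.46 without replicate 3 (adjusted p = 5.27e-05) and -0.41 with replicate 3 alone, which did not pass. It also did not pass with library size alone (adjusted p = 0.103), no filter (0.112) or only the groups compared (0.0513). The defactinib effect differed by 1.55 ± 0.33 (adjusted p = 0.00206), with 1.98 without replicate 3 and 0.91 with it alone, both past the threshold.

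Btk, a Tec family kinase, fell with LPS and was higher with defactinib in WT. It was at 95.3, 95.6 and 87.3 CPM in WT unstimulated, at 55.8, 54.8 and 55.9 CPM in WT LPS DMSO, and at 89.4, 76.9 and 83.9 CPM in WT LPS defactinib. The LPS DMSO libraries lie below all others of the series, and the other WT groups overlap. LPS lowered Btk by 1.67-fold (log2 -0.74 ± 0.08, adjusted p = 2.78e-06), and with defactinib it was 1.5-fold higher (log2 0.59 ± 0.08, adjusted p = 2.26e-05).

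For IRF5 KO, Btk was at 107, 108 and 104 CPM unstimulated, at 79.2, 77.7 and 87.6 CPM in LPS DMSO, and at 82.8, 73.1 and 79.7 CPM in LPS defactinib. LPS lowered it by 1.3-fold (log2 -0.38 ± 0.08, adjusted p = 0.00382), by -0.43 without replicate 3 and -0.26 with replicate 3 alone (adjusted p = 0.208). With only the groups compared it was -0.33 and did not pass (adjusted p = 0.102). The response differed between the genotypes by 0.36 ± 0.11 (adjusted p = 0.0382), which passed in 11 of the 18 fits that leave out 1 library and not with no filter (adjusted p = 0.134). It was 0.31 without replicate 3 and 0.49 with it alone, both past the threshold. After LPS DMSO, IRF5 KO was above WT by 0.55 ± 0.08 (adjusted p = 5.15e-05), by 0.50 without replicate 3 and 0.68 with it alone, both past the threshold. For defactinib the genotypes differed by -0.64 ± 0.11 (adjusted p = 0.000425), with -0.59 and -0.78 in these fits.

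**Figure D2:**
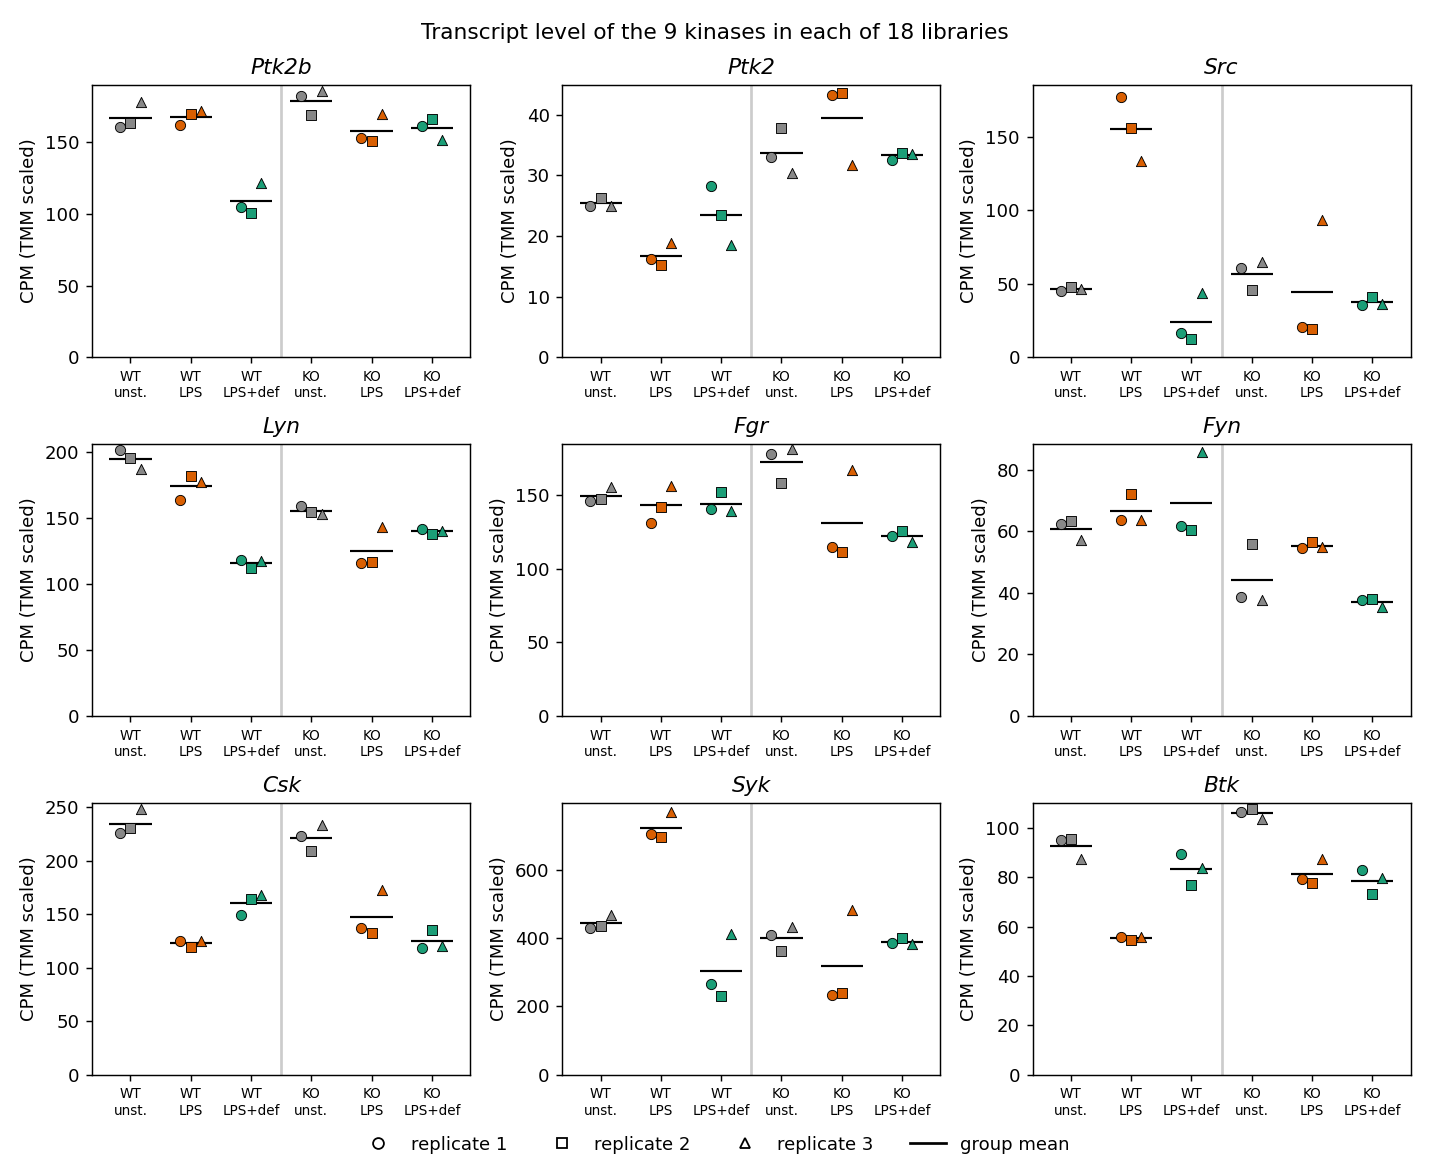
CPM of each kinase gene (vertical axes, TMM scaled, from 0) in the 18 libraries (points, shaped by replicate) of the 6 groups (horizontal axes), with the group mean as a line. Btk in WT LPS DMSO sits at 54.8 to 55.9 CPM, below all other libraries, and Src and Syk in IRF5 KO LPS DMSO split into 2 low libraries and 1 high one.

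A gene was called in a comparison at an adjusted p below 0.05 with a change over 2-fold. For the LPS response in WT, Src was the 1 of 9 genes called, where 21.3% of all tested genes were. At an adjusted p below 0.05 alone, 5 of 9 passed (Src and Syk higher, Ptk2, Csk and Btk lower), as against 41.8% of all genes. Neither count is read as particular to the 9 genes. The median log2 change was -0.07 over the 9 genes and 0.00 over all genes.

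For the LPS response in IRF5 KO, 0 of 9 were called by edgeR, DESeq2 or limma-voom (13.3% of all genes by edgeR), with 5 at an unadjusted p below 0.05. Lyn, Fgr, Csk and Btk passed the adjusted p alone, all lower (4 of 9, against 37.5% of all genes), and none of these 4 passed with only the groups compared. Without replicate 1 or replicate 2 of the LPS group, 2 of 9 passed (15.7% and 16% of all genes). Without replicate 3 of the LPS group, 1 was called and 8 passed the adjusted p, where 26.2% and 58.3% of all genes did. With replicate 3 as the only library, 0 were called and 0 passed, where 2.71% and 4.76% of all genes did.

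For defactinib in LPS-stimulated WT, 2 of 9 were called (Src and Syk, both lower), as against 29.1% of all genes. By the adjusted p alone 7 of 9 passed, Ptk2b, Src, Lyn and Syk lower and Ptk2, Csk and Btk higher, as against 57% of all genes. Their median change was 0.01, and that of all genes 0.09. For defactinib in LPS-stimulated IRF5 KO, 0 of 9 were called by edgeR, DESeq2 or limma-voom (0.919% of all genes by edgeR), with 2 at an unadjusted p below 0.05, and Fyn passed the adjusted p (1 of 9, 3.36% of all genes). With replicate 3 as the only IRF5 KO LPS DMSO library, Src was past both thresholds (log2 -1.34, adjusted p = 0.0383), as were 19.2% of all genes, but this rests on 1 library at 93.6 CPM. By the adjusted p 4 of 9 passed in that fit (41% of all genes), Src, Fgr (-0.47), Fyn and Csk (-0.49), all lower. Without replicate 3, 3 of 9 passed (7.83% of all genes): Syk (0.72, adjusted p = 0.0157) and Lyn (0.27, adjusted p = 0.0283) higher and Fyn lower, while Src was at 0.93 (adjusted p = 0.187).

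**Figure D3:**
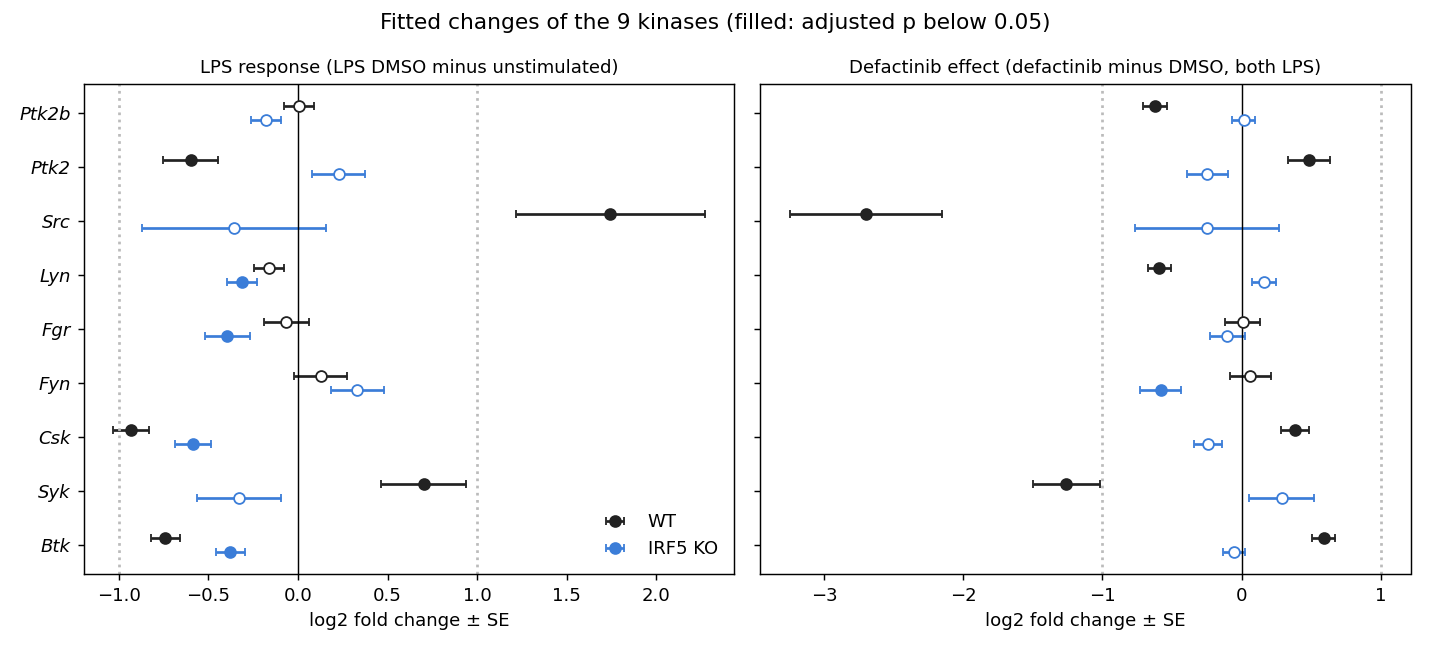
Fitted log2 fold changes (horizontal axes, bars SE) of the 9 genes for LPS (left) and defactinib (right) in WT (black) and IRF5 KO (blue), with filled points at an adjusted p below 0.05 and dotted lines at 2-fold. Src lies at 1.74 and -2.70 in WT, and its bars are the longest.

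The defactinib effect differed between the genotypes for 8 of 9 genes by the adjusted p, all but Fgr (-0.11 ± 0.18, adjusted p = 0.657), where 37% of all genes did, and Src and Syk were the 2 past 2-fold (22.8% of all genes). Without replicate 3 of IRF5 KO LPS DMSO the count by the adjusted p was again 8 (54% of all genes), and with it alone it was 6 (32.4%), Fgr among them (-0.49, adjusted p = 0.012). The median of all genes in this contrast was itself at -0.12. For the LPS response the genotypes differed in 3 of 9 genes (Ptk2, Syk and Btk), as against 17.1% of all genes, with Syk the 1 past 2-fold (9.83% of all genes). Without replicate 3 these counts were 6 and 2 (46.7% and 23.6% of all genes), and with it alone 2 and 0 (12.2% and 6.48%). The WT LPS DMSO libraries enter both the LPS and the defactinib comparison with opposite sign, so the opposite directions of these in WT are not separate observations. The direct comparison of LPS with defactinib against unstimulated does not use them. There Ptk2b (-0.62 ± 0.09, adjusted p = 4.71e-05), Lyn (-0.75 ± 0.08, adjusted p = 6.75e-06) and Csk (-0.55 ± 0.10, adjusted p = 0.000397) were lower in WT, 3 of 9 where 53.2% of all genes passed. In IRF5 KO Fgr (-0.50 ± 0.13, adjusted p = 0.00397), Csk (-0.83 ± 0.10, adjusted p = 3.03e-05) and Btk (-0.43 ± 0.08, adjusted p = 0.000529) were lower, 3 of 9 where 53.4% passed. By edgeR, DESeq2 and limma-voom 0 of 9 were called in each of these (24.9% and 24% of all genes by edgeR), with 4 and 3 at an unadjusted p below 0.05.

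Between the genotypes, 0 of 9 were called unstimulated by edgeR, DESeq2 or limma-voom (7.31% of all genes by edgeR, 4 of the 9 at an unadjusted p below 0.05), and Lyn and Fyn passed the adjusted p (2 of 9, 15.3% of all genes). After LPS DMSO, 3 of 9 were called, Ptk2 higher and Src and Syk lower in IRF5 KO (25.8% of all genes), and 6 passed the adjusted p (52.2%). Without replicate 3 the count was 3 and 6 (34.5% and 65.5% of all genes), and with it alone 0 and 4 (16% and 32.9%). Under LPS with defactinib 0 were called by the same 3 tools (17.3% by edgeR), and 5 passed both the adjusted and the unadjusted p (36.3% by the adjusted p): Ptk2b, Ptk2 and Lyn higher and Fyn and Csk lower. Of these, Lyn (0.27 ± 0.08, adjusted p = 0.0178) was lost without WT LPS defactinib replicate 1 or 2 or IRF5 KO LPS defactinib replicate 1 or 3 (adjusted p = 0.0555, 0.052, 0.077 and 0.064), with library size alone (0.20, adjusted p = 0.17) and with only the groups compared (0.0585).

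**Figure D4:**
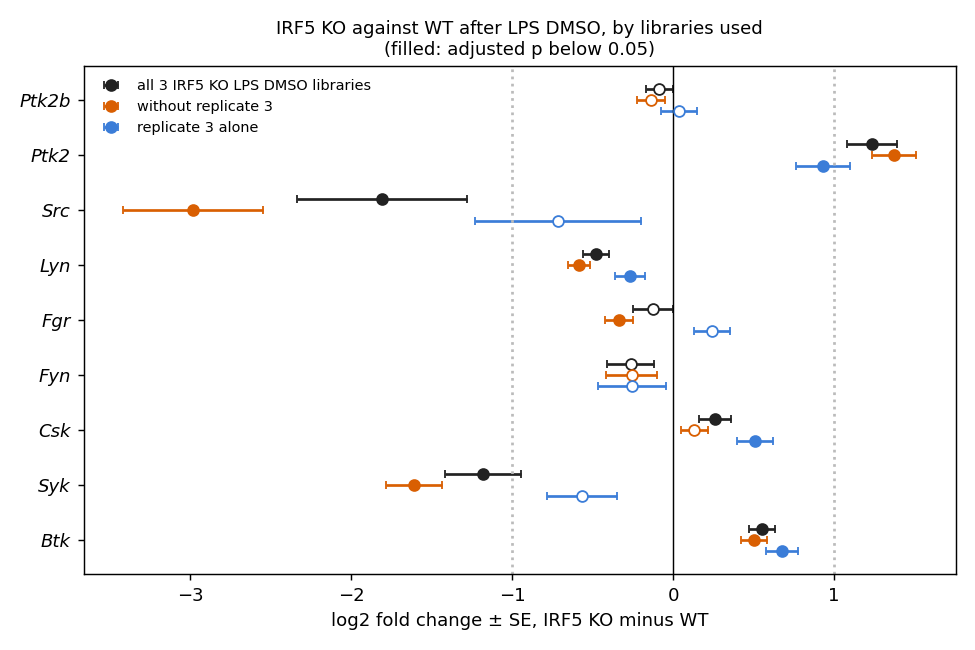
Log2 difference of IRF5 KO minus WT after LPS DMSO (horizontal axis, bars SE) for each gene, fitted with all 3 IRF5 KO LPS DMSO libraries, without replicate 3 and with replicate 3 alone, filled at an adjusted p below 0.05. Src moves from -2.98 to -0.71 and Syk from -1.61 to -0.57 between the last 2 fits, and Ptk2 stays at 0.93 or above.

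Over the 18 libraries Src and Syk had the highest correlation among the 36 pairs of the 9 genes (Pearson r of log2 CPM 0.96), followed by Csk and Btk (0.77), Lyn and Syk (0.74) and Fgr and Csk (0.70). Ptk2 had negative coefficients with Syk (-0.70), Fyn (-0.60) and Src (-0.59), and Ptk2b and Ptk2 were at 0.12. These are descriptions, since the libraries share treatments, genotype and scaling. Among 8458 genes, those most alike in log2 CPM were Slfn2, Znfx1 and Dpf2 for Src (r = 0.979, 0.975 and 0.974) and Tfec, Samd4b and Slfn2 for Syk (0.977, 0.976 and 0.974), so that the Schlafen gene Slfn2 was named for both. For Csk they were Dolpp1, Rps6ka1 and Plekho1 (0.987, 0.984 and 0.982), and for Btk Tmem126b, Ankrd46 and Slc35b4 (0.979, 0.971 and 0.967). Ptk2b was closest to Pogz, Zfp574 and Pprc1 (0.972, 0.971 and 0.97), and Ptk2 to Map4k1, Cad and Scd1 (0.975, 0.96 and 0.959). Traf5, Fbxo3 and Bcl6 were closest to Lyn (0.969, 0.957 and 0.945), Rbm19, Krcc1 and Rnf220 to Fgr (0.913, 0.908 and 0.887), and Arhgef40, Serinc5 and Nlrc5 to Fyn (0.946, 0.867 and 0.856).

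**Figure D5:**
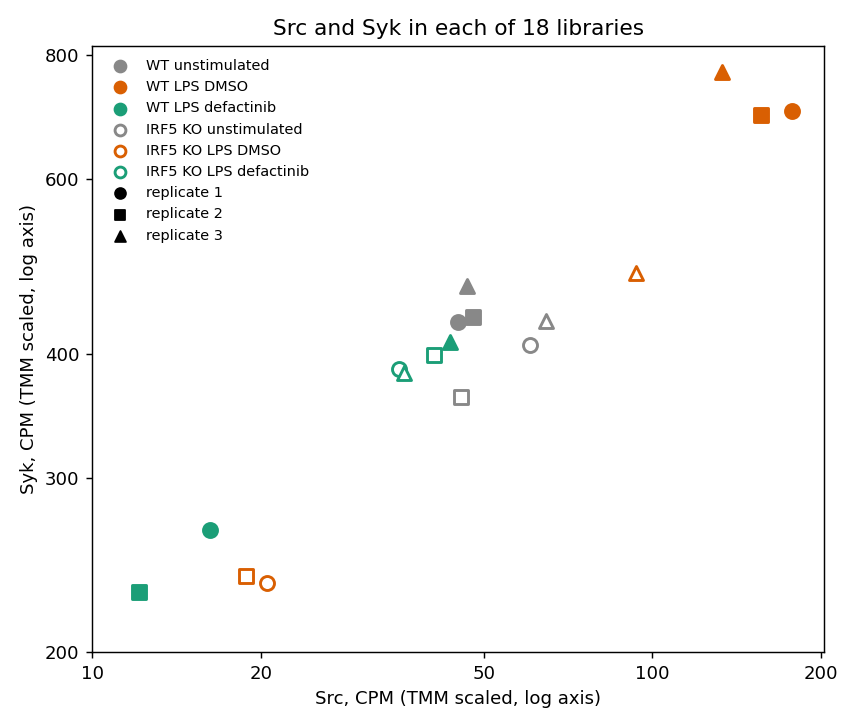
Src (horizontal) against Syk (vertical) in CPM on log axes for the 18 libraries, coloured by treatment, filled for WT and open for IRF5 KO. The 3 WT LPS DMSO libraries lie at the top right (133 to 177 and 697 to 769.8 CPM), and at the bottom left are WT LPS defactinib replicates 1 and 2 beside IRF5 KO LPS DMSO replicates 1 and 2.

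Among other Src family genes, 3 were tested, and Yes1 and Lck were called for LPS and for defactinib in WT. Of all genes 21.3% and 29.1% were called in these comparisons. Yes1, the ubiquitous member nearest to Src, rose from 1.51 to 1.95 CPM to 19.7 to 25.6 CPM (log2 3.62 ± 0.25, adjusted p = 3.31e-08) and fell to 5.92 to 13.2 CPM with defactinib (-1.16 ± 0.23, adjusted p = 5e-04). Lck, best known from T cells, rose from 0.186 to 0.225 CPM to 3.76 to 5.22 CPM (4.39 ± 0.46, adjusted p = 2.06e-06) and fell to 0.241 to 0.535 CPM (-3.62 ± 0.45, adjusted p = 8.2e-06). In the same WT LPS DMSO libraries the 10 markers of T and NK cells summed to 15.6 to 19.8 CPM, as against 3.42 CPM or less in all other libraries, of which Cd247 made 14.7 ± 2.00 CPM (SD, n = 3). Cd3e was at 0.0696 CPM or less in them, and 9 of the 10 markers had a mean below 1 CPM over all 18 libraries. The part of such cells in the Lck value was not tested.

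Lists of partner genes, written for these kinases with earlier results of the data known, are given by counts, to be read against the 21.3% of all genes called for LPS and the 29.1% called for defactinib in WT. Of 14 tested regulators of Src family kinases, LPS in WT raised 2 and lowered 2 past 2-fold, with Cblb, a ubiquitin ligase (log2 1.82 ± 0.27, adjusted p = 5.84e-05), and Sla, an adaptor (-2.57 ± 0.44, adjusted p = 0.000263), moving most. Defactinib raised 0 and lowered 2 of them, the receptor phosphatases Ptpre (-1.98 ± 0.51, adjusted p = 0.00446) and Ptprj (-1.66 ± 0.14, adjusted p = 2.94e-07). Of 12 ITAM adaptors and receptors LPS raised 3 and lowered 0, and defactinib raised 0 and lowered 2. The lectin receptor Clec4e, which signals through Syk, rose by 3.01 ± 0.38 (adjusted p = 1.47e-05) with LPS and fell by 1.87 ± 0.36 (adjusted p = 0.000514) with defactinib, while Trem1 fell most with defactinib (-2.22 ± 0.48, adjusted p = 0.00123).

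Of 28 tested partners of FAK and PYK2, LPS in WT raised 1 and lowered 3 past 2-fold (21.3% of all genes called), and defactinib raised 0 and lowered 6 (29.1% of all genes), so that neither count exceeds the background. Arhgap26, a GTPase-activating protein that binds FAK, rose most with LPS (1.59 ± 0.15, adjusted p = 8.3e-07) and Sh2d3c, an adaptor of the Cas proteins, fell most (-2.36 ± 0.44, adjusted p = 0.000465). With defactinib the largest fall was that of Crkl, an adaptor that binds Cas (-2.45 ± 0.14, adjusted p = 4.33e-09). Of 22 genes downstream of Syk and Btk, LPS raised 6 and lowered 6, and defactinib raised 4 and lowered 6. These counts are above the 21.3% and 29.1% of all genes called, a difference that was not tested. Sh3bp5, whose protein binds Btk and holds it down, rose by 3.19 ± 0.36 (adjusted p = 5.29e-06) with LPS and fell by 3.11 ± 0.36 (adjusted p = 5.88e-06) with defactinib. Vav2, a guanine nucleotide exchange factor, fell with LPS (-1.99 ± 0.18, adjusted p = 5.06e-07) and rose with defactinib (2.07 ± 0.18, adjusted p = 3.13e-07). The medians for defactinib in WT were -0.15 over the regulators, 0.11 over the ITAM genes, -0.26 over the FAK and PYK2 partners and 0.12 over the downstream genes, against 0.09 over all genes.

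Of 4 tested relatives of Syk and Btk, LPS in WT raised 0 and lowered 1, Tec, which went from 125 to 128 CPM to 36.5 to 43.6 CPM (log2 -1.69 ± 0.23, adjusted p = 3.03e-05). Defactinib in WT raised 1 and lowered 1 of the 4, neither of them Tec, which was at 45.7 to 53.0 CPM (0.35 ± 0.23, adjusted p = 0.207).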

How the data were processed

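The deposited values are raw counts of read pairs per Ensembl gene, which the authors made by aligning reads with STAR to mm10 and counting exons by gene with featureCounts 1.6.3, stranded (option 2) and at a mapping quality of 255. Reads that map to several places were thus left out, which can lower counts of genes with near-identical copies. From these counts, TMM-scaled CPM were computed, and genes were filtered with filterByExpr, leaving 15663 genes. All 18 libraries were fitted together in edgeR 4.0.16 (R 4.3.3) with the robust quasi-likelihood F test, and p-values were adjusted by Benjamini-Hochberg over all tested genes. Genotype differences are IRF5 KO minus WT, and differences between effects are the IRF5 KO effect minus the WT effect. The script was tested on simulated data. Alternatives were DESeq2 1.42.0, limma-voom 3.58.1, other scalings, no filter, a replicate block, only the groups compared, and leaving out libraries. The members, lists and alternatives were chosen with earlier results of these data known. Named genes are the 9 members, the called gene of each list with the largest rise and fall in WT, other Src family genes, and the 3 genes most alike to each member. Ptprj and Clec4e with defactinib were named after their values were seen, as was Tec there. Some genes that this rule names are not reported here. The part of the study that is not RNA-seq was not analysed here.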

Additional observations from a re-analysis of the deposited data

Results flagged for a closer look

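Effects that differed between WT and IRF5 KO by a test of the difference itself (log2, IRF5 KO effect minus WT effect, edgeR, adjusted over all genes) are listed for a closer look. For the LPS response these were Ptk2 (0.83, adjusted p = 0.0162), Syk (-1.03, adjusted p = 0.0442) and Btk (0.36, adjusted p = 0.0382). With IRF5 KO LPS DMSO replicate 3 as the only library of its group, Ptk2 and Syk did not pass (adjusted p = 0.126 and 0.376). For Src the difference was -2.10 (adjusted p = 0.0618), and it passed with DESeq2 and limma-voom (adjusted p = 0.0132 and 0.0148).

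For the defactinib effect they were Src (2.45, adjusted p = 0.017), Syk (1.55, adjusted p = 0.00206), Lyn (0.75, adjusted p = 0.000154) and Ptk2b (0.63, adjusted p = 0.000787), all of which were lower with defactinib in WT. In the other direction they were Ptk2 (-0.73, adjusted p = 0.0138), Fyn (-0.64, adjusted p = 0.0247), Btk (-0.64, adjusted p = 0.000425) and Csk (-0.62, adjusted p = 0.00271). With replicate 3 alone Src, Ptk2 and Fyn did not pass (adjusted p = 0.137, 0.129 and 0.0557). Both sets of differences use the IRF5 KO LPS DMSO libraries, of which replicates 1 and 2 held Gm26917 at a share within the range of the defactinib libraries. These replicates were 1211 to 1470 genes over 2-fold apart from the IRF5 KO LPS defactinib libraries, and replicate 3 was 1278 to 1447 from the IRF5 KO unstimulated ones. Whether a library is mislabelled, and the part of this in the differences, was not tested.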

How the results depend on the processing

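Of 99 results tested for the 9 genes, 47 passed an adjusted p of 0.05, and 24 of these passed in the same direction in all 26 alternatives. Among 2574 alternative values, 108 lost and 60 gained the threshold, and 57 values in 23 results changed sign with neither value past it. Besides these, the LPS difference of Ptk2b in WT, 0.00 and without a clear direction (adjusted p = 0.974), passed at -0.37 with library size alone. Under that scaling the median of all genes shifted to -0.38.

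Shares of all genes were computed with no fold threshold, as given above, and for fits that change the IRF5 KO LPS DMSO libraries. For the other alternatives they were not, so the counts in this section are not read as particular to the 9 genes. The count of genes called for LPS in WT (1) became 3 with library size alone, where the median of all genes shifted to -0.38. It was 0 with no filter on low counts and 5 with no fold threshold (41.8% of all genes). For LPS in IRF5 KO (0) it ranged from 0 to 1 over the fits that leave out 1 library, the 1 being Src when replicate 3 of the IRF5 KO LPS DMSO group was left out, and was 4 with no fold threshold. For defactinib in WT (2) it was 7 with no fold threshold, and for defactinib in IRF5 KO (0) it was 1 with no fold threshold and 1 with replicate 3 as the only IRF5 KO LPS DMSO library. Between genotypes, the count unstimulated (0) was 2 with no fold threshold. After LPS DMSO (3) it was 6 with no fold threshold, 0 with replicate 3 alone, and 2 with library size alone, with only the groups compared and without replicate 1 or 2 of the IRF5 KO group. Under LPS with defactinib (0) it was 5 with no fold threshold and ranged from 0 to 1 over the fits that leave out 1 library (1 without WT LPS defactinib replicate 1 or 2). For LPS with defactinib against unstimulated, the count in WT (0) was 3 with no fold threshold and 0 to 1 with 1 library left out (1 without WT LPS defactinib replicate 3), and in IRF5 KO (0) it was 3 with no fold threshold and 1 with library size alone.

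The count of LPS responses that differed between genotypes (1) was 0 with library size alone, with no filter, with only the groups compared and with replicate 3 alone, 2 with DESeq2 and with limma-voom, 3 with no fold threshold and 0 to 2 with 1 library left out. For defactinib effects (2) it was 1 with no filter and with only the groups compared, 0 with replicate 3 alone and 8 with no fold threshold. With the replicate block, the count of differing LPS responses was 2, with Src added (-2.35, adjusted p = 0.0258), Syk for LPS with defactinib against unstimulated in WT passed the adjusted p (adjusted p = 0.0169), and Fyn with defactinib in IRF5 KO did not pass (-0.58, adjusted p = 0.0599). The block changed no other call by the adjusted p. Replicate numbers were not taken as pairs, since the deviations of same-numbered libraries had a median correlation of 0.00455 and 4 of 45 were over 0.1. The causes of these changes were not tested. Each of the 9 genes had at least 504 counts in every library, and 3 libraries a group limit the precision.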
